A study of Mus musculus with 12 samples.

Results

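The genes described here encode the core regulators of the G1 phase of the cell cycle: the D-type cyclins Ccnd1, Ccnd2 and Ccnd3, their kinase Cdk4, the kinase inhibitors Cdkn1a, Cdkn1b, Cdkn1c and Cdkn2c, the retinoblastoma gene Rb1 and the transcription factor gene E2f1. The 10 genes were chosen by symbol, and all 10 were found among the 15113 genes of the count table. They were measured in C2C12 cells, a mouse myoblast line that had been differentiated into myotubes in low serum. Cells received 20 μM BAM15, a mitochondrial uncoupler, or DMSO vehicle for 16 h, and 6 libraries of each condition were sequenced. All libraries came from this single cell line, and nothing in the sample records says that they came from separate cultures, so that p-values measure the spread between these libraries.

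A D-type cyclin binds CDK4 or CDK6, and the complex phosphorylates the retinoblastoma protein, which otherwise holds E2F factors in check. Released E2F factors activate genes of DNA synthesis, among them those of the E-type cyclins. Proteins of the INK4 family, such as the Cdkn2c product p18, bind the kinases CDK4 and CDK6 themselves, whereas the CIP/KIP proteins p21 (Cdkn1a), p27 (Cdkn1b) and p57 (Cdkn1c) bind complexes of cyclins and kinases. In muscle, myoblasts leave the cell cycle before they fuse, and p21, cyclin D3 and the retinoblastoma protein are known for high levels in myotubes.

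Libraries were made with QuantSeq, which reads the 3′ end of each transcript, so that 1 transcript gives about 1 fragment whatever its length and counts of different genes can be set side by side without division by length. Between 13983725 and 18866728 reads per library were counted on genes. Counts were scaled for library size and composition by the TMM method and are given below as normalized counts, on the scale of the mean library, as mean ± SD of 6 libraries. Summed markers of myotubes (12 genes, all detected) took 27311 to 29810 CPM (counts scaled to a common library total) in vehicle libraries. They took 28718 to 30050 in BAM15 libraries 1 to 3 and 26049 to 26677 in BAM15 libraries 4 to 6. These sums and the marker sums below leave out the TMM factors. The factors were 0.932 to 0.960 for BAM15 libraries 1 to 3, 0.980 to 1.04 for libraries 4 to 6 and 1.01 to 1.04 for vehicle. The order of sums that lie close together therefore depends on the scaling. Between BAM15 libraries 4 to 6 and 1 to 3, a difference was found in 38.8% of the 12730 tested genes at an adjusted p-value below 0.05, and between the vehicle libraries with these numbers in 0% (0 genes by edgeR, 696 at an unadjusted p-value below 0.05). The sample records name no batch. The split was chosen because earlier results of these data showed BAM15 libraries 4 to 6 apart from 1 to 3. Its p-values, also those of the interaction tests below, are therefore given as a description.

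All 10 genes passed the filter on low counts, with at least 96 reads in every library. In the quasi-likelihood test of edgeR, with p-values adjusted by the Benjamini-Hochberg method over all tested genes, 3 of the 10 rose after BAM15 (Ccnd2, Cdkn1b and Cdk4) and 5 fell (Ccnd1, E2f1, Cdkn2c, Cdkn1c and Ccnd3) at an adjusted p-value below 0.01. Rb1 and Cdkn1a did not pass. Of all tested genes, 22% rose and 20.3% fell by the same rule, 42.3% together. The median log2 fold change of the 10 genes was −0.33, and that of all tested genes was 0.02. BAM15 and vehicle libraries did not overlap for 8 of the 10 genes, against 34.2% of all tested genes. A base mean (average of all 12 libraries) above 50 and a change of more than 2-fold were in addition met by Ccnd2, which rose, and by Ccnd1 and E2f1, which fell. Among all tested genes 3.7% rose and 3.58% fell past these 3 thresholds, 7.28% in either direction.

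**Figure D1:**
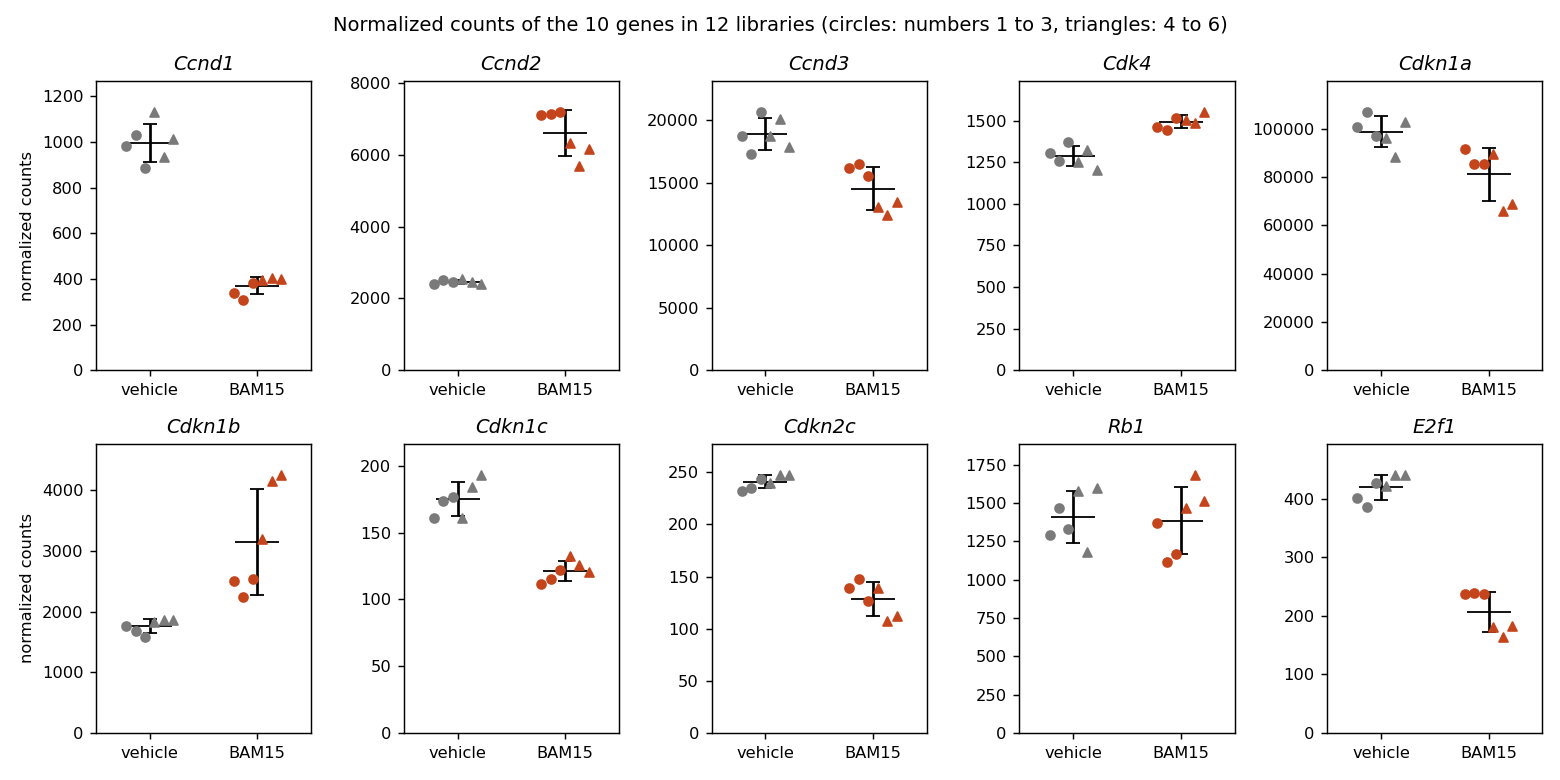
Normalized counts (linear axis from 0) of the 10 genes in the 6 vehicle and 6 BAM15 libraries, with circles for library numbers 1 to 3, triangles for 4 to 6, and bars for the mean ± SD. Ccnd2, Cdkn1b and Cdk4 lie higher in every BAM15 library, Ccnd1, Ccnd3, Cdkn1c, Cdkn2c and E2f1 lie lower, and Cdkn1a and Rb1 overlap.

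The 3 D-type cyclin genes moved apart. Ccnd1 (chromosome 7, 144929931 to 144939925, minus strand, GRCm38) encodes cyclin D1, whose gene responds to growth factors. It ranged from 887 to 1131 normalized counts in vehicle libraries (median 999) and from 309 to 403 in BAM15 libraries (median 388). Every BAM15 library was thus below every vehicle library. Ccnd1 fell 2.69-fold from 996 ± 84.4 to 371 ± 38.6 normalized counts (log2 fold change −1.42 ± 0.08 SE, edgeR adjusted p = 1.26e-09). All of the last 400 bases of the Ccnd1 transcript lie opposite exons of LTO1 on the other strand, and the strand used for counting is not given in the sources used here. LTO1 itself fell from 216 ± 13.1 to 137 ± 21.7 normalized counts (log2 fold change −0.66, adjusted p = 8.23e-05, edgeR). The share of reads from LTO1 in the Ccnd1 count was not tested.

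Ccnd2 (chromosome 6, 127125162 to 127152193, minus strand), which encodes cyclin D2, changed by the same factor in the other direction. Its vehicle libraries lay close together between 2399 and 2537 normalized counts (median 2450), and its BAM15 libraries between 5701 and 7192 (median 6729). The lowest BAM15 library was thus above 2 times the highest vehicle library. Ccnd2 rose 2.69-fold from 2460 ± 55.2 to 6607 ± 629 normalized counts (log2 fold change 1.43 ± 0.06 SE, edgeR adjusted p = 7.85e-11). No annotated exon of another gene covers its last 400 bases. BAM15 libraries 1 to 3 had 7123 to 7192 normalized counts and libraries 4 to 6 had 5701 to 6336.

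Ccnd3 (chromosome 17, 47505051 to 47599691, plus strand), which encodes cyclin D3, was the most abundant D-type cyclin gene in every library. It ranged from 17273 to 20674 normalized counts with vehicle (median 18762) and from 12465 to 16486 after BAM15 (median 14541). The groups did not overlap, and BAM15 libraries 4 to 6 (12465 to 13507) lay below libraries 1 to 3 (15574 to 16486). Ccnd3 fell 1.30-fold from 18900 ± 1290 to 14550 ± 1741 normalized counts (log2 fold change −0.38 ± 0.08 SE, edgeR adjusted p = 8.60e-04). The log2 fold change of Ccnd3 was −0.24 in numbers 1 to 3 and −0.55 in numbers 4 to 6 (edgeR adjusted p = 3.93e-03 and 7.45e-05). Exons of Bysl on the other strand cover 353 of its last 400 bases. Bysl had 1080 ± 45.5 normalized counts with vehicle and 1253 ± 147 after BAM15, which missed the threshold (log2 fold change 0.21, edgeR adjusted p = 0.0229).

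Added up, the 3 genes gave 22357 ± 1229 normalized counts with vehicle and 21528 ± 2316 after BAM15, with 20816 to 24012 in vehicle libraries. The sums of BAM15 libraries 1 to 3 (23148 to 23926) lay within the vehicle range, and those of libraries 4 to 6 (18568 to 20067) lay below it. Ccnd2 supplied 11% ± 0.684 of the D-type cyclin counts with vehicle and 30.7% ± 0.772 after BAM15. Ccnd3 supplied 84.5% ± 1.20 and 67.5% ± 1.04. Ccnd1 supplied 4.48% ± 0.545 and 1.75% ± 0.351. The ratio of Ccnd2 to Ccnd1 counts was 2.24 to 2.77 in vehicle libraries and 14.2 to 23.1 in BAM15 libraries, and these shares and ratios are given without a test.

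**Figure D2:**
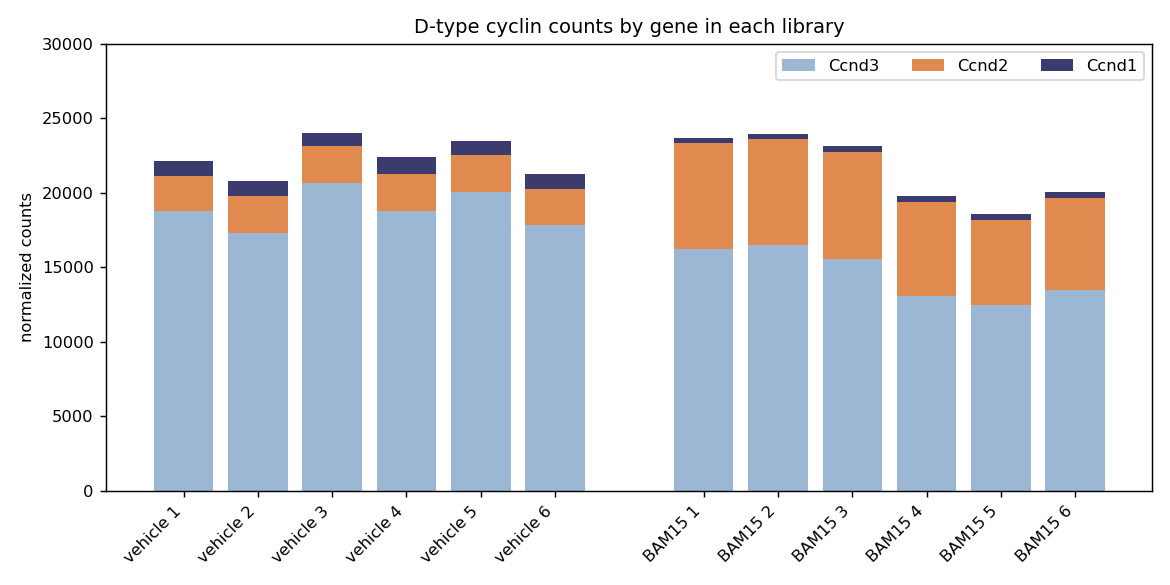
Stacked bars of the normalized counts of Ccnd3, Ccnd2 and Ccnd1 in each of the 12 libraries (linear axis from 0). The bars of BAM15 libraries 1 to 3 reach heights within the vehicle range and those of libraries 4 to 6 stay below it, whereas the Ccnd2 part is larger and the Ccnd1 part smaller in all 6 BAM15 libraries.

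Cdk4 (chromosome 10, 127063534 to 127067920, plus strand), the kinase partner of these cyclins, changed least among the genes that passed. It ranged from 1203 to 1373 normalized counts with vehicle (median 1280) and from 1445 to 1551 after BAM15 (median 1494). The groups were close but did not overlap. Cdk4 rose 1.16-fold from 1286 ± 60.8 to 1494 ± 38.0 normalized counts (log2 fold change 0.22 ± 0.05 SE, edgeR adjusted p = 1.35e-03). This call was lost when libraries were scaled by library size only (adjusted p = 0.0270, edgeR, range over the alternatives 1.58e-04 to 0.0293). Exons of Tspan31 on the other strand cover all of the last 400 bases of Cdk4, and 4.56% of the 50-base windows there also occur in the same orientation in transcripts of other genes. Tspan31 had 277 ± 33.3 normalized counts with vehicle and 301 ± 143 after BAM15 (log2 fold change 0.12, adjusted p = 0.718, edgeR).

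Among the CIP/KIP inhibitors, Cdkn1b rose, Cdkn1c fell and Cdkn1a did not pass. Cdkn1a (chromosome 17, 29090976 to 29100727, plus strand), which encodes p21, was by far the most abundant of the 10 genes and held rank 8 of the 12730 tested genes in vehicle libraries, with 0.596% of all counts. It ranged from 88360 to 106902 normalized counts with vehicle (median 98730) and from 65894 to 91786 after BAM15 (median 85465). BAM15 libraries 1 and 4 overlapped the vehicle range, and BAM15 libraries 5 and 6 were lowest. The means were 98668 ± 6403 and 81132 ± 11018 normalized counts (log2 fold change −0.28 ± 0.09 SE, edgeR adjusted p = 0.0135). The log2 fold change was negative in all 26 alternative fits, between −0.37 and −0.22, and 11 of them passed an adjusted p-value of 0.01. Among these were the fit without BAM15 library 1 (adjusted p = 7.95e-03, edgeR), the fit with a term for numbers 1 to 3 or 4 to 6 (adjusted p = 2.82e-03, edgeR) and the fit by DESeq2 (adjusted p = 2.96e-03), with a range over the alternatives of 6.31e-04 to 0.0290.

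Cdkn1b (chromosome 6, 134920401 to 134925513, plus strand), which encodes p27, ranged from 1574 to 1865 normalized counts with vehicle (median 1802) and from 2246 to 4256 after BAM15 (median 2871). Every BAM15 library was above every vehicle library. BAM15 libraries 1 to 3 had 2246 to 2541 normalized counts, library 4 had 3200, and libraries 5 and 6 had 4151 and 4256. Over all libraries Cdkn1b rose 1.78-fold from 1765 ± 116 to 3150 ± 875 normalized counts (log2 fold change 0.84 ± 0.15 SE, edgeR adjusted p = 3.09e-04). The log2 fold change was 0.53 in numbers 1 to 3 (edgeR adjusted p = 1.09e-06) and 1.05 in numbers 4 to 6 (edgeR adjusted p = 3.55e-06). The difference between these effects was 0.52 on the log2 scale (adjusted p = 0.0454, edgeR interaction test), and 2.66% of all tested genes had such a difference at an adjusted p-value below 0.05.

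Cdkn1c (chromosome 7, 143458339 to 143461050, minus strand), which encodes p57 and is an imprinted gene, had the lowest level of the 10 genes. It ranged from 161 to 193 normalized counts with vehicle (median 175) and from 112 to 132 after BAM15 (median 121), without overlap. Cdkn1c fell 1.44-fold from 175 ± 12.8 to 121 ± 7.38 normalized counts (log2 fold change −0.53 ± 0.08 SE, edgeR adjusted p = 5.16e-05). The sum of the 3 CIP/KIP genes followed Cdkn1a, which gave 98.1% ± 0.199 of it with vehicle and 96.0% ± 1.59 after BAM15, while the Cdkn1b part was 1.76% ± 0.187 and 3.88% ± 1.57.

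Cdkn2c (chromosome 4, 109660876 to 109667189, minus strand), the INK4 gene of p18, ranged from 232 to 248 normalized counts with vehicle (median 241) and from 107 to 148 after BAM15 (median 133). The groups were far apart in relation to the narrow vehicle range. Cdkn2c fell 1.87-fold from 241 ± 6.39 to 129 ± 16.3 normalized counts (log2 fold change −0.91 ± 0.09 SE, edgeR adjusted p = 4.87e-07). The log2 fold change was −0.79 in library numbers 1 to 3 and −1.05 in numbers 4 to 6 (edgeR adjusted p = 1.15e-05 and 3.92e-05). The difference between these effects had an adjusted p of 0.349 in the edgeR interaction test. Of the other INK4 genes, Cdkn2d (p19) fell from 900 ± 52.1 to 559 ± 140 normalized counts (log2 fold change −0.69, edgeR adjusted p = 5.93e-04). Cdkn2a and Cdkn2b were not analysed here.

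Promoter sequences from RefSeq (GRCm38.p6, 250 bases before to 50 after each annotated start, 1 or 2 starts per gene) were found for 6 of the 10 genes, and not for Ccnd1, Ccnd2, Cdkn1c and Rb1. Those of Cdkn1b, which rose, and Ccnd3, which fell, are shown because their starts coincide with the 5′ end of the gene in the GENCODE annotation and the genes moved in opposite directions. The 250 bases before the start are written 5′ to 3′ on the strand of the gene, and capitals mark the GC box (GGGCGG), the CCAAT box (CCAAT) and the letters GTAAACA, which FOXO factors bind, all searched on both strands.
Cdkn1b, chr6:134920151-134920400, plus strand: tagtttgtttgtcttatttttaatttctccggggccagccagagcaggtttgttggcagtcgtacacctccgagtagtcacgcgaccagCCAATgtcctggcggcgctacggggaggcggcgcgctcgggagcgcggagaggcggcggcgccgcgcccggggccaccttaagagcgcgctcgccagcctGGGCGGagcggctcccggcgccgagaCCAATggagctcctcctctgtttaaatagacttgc
Ccnd3, chr17:47504801-47505050, plus strand: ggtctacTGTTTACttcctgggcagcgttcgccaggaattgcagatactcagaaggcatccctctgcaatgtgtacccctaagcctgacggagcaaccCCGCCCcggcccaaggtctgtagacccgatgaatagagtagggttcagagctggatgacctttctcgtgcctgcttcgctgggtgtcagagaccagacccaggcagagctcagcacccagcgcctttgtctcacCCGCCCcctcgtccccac
The Cdkn1b stretch holds 1 GC box, which begins 61 bases before the start, and CCAAT boxes at 161 and 35 bases. The Ccnd3 stretch holds GC boxes at 152 and 18 bases, the FOXO letters at 243 bases, all 3 on the opposite strand, and no CCAAT box. Ccnd3 has a second RefSeq start 88416 bases further into the gene, which is not shown. The window of that start holds GC boxes and a CCAAT box but no FOXO letters. Over all windows of a gene, a GC box was found for 6 of 6 genes and a CCAAT box for 3, compared with 38.2% and 41.1% of all 27025 genes with a window. GTAAACA was found for 1 of the 6 genes (Ccnd3) and 4.05% of all genes, and TGATGNAA, the composite element of ATF4 and C/EBP factors, for 0 of 6 and 4.51%. These matches describe the sequence only, and the windows of E2f1 and Cdkn2c lie inside the gene as GENCODE annotates it.

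Rb1 (chromosome 14, 73183673 to 73325822, minus strand), whose protein restrains E2F factors, ranged from 1181 to 1598 normalized counts with vehicle (median 1400) and from 1114 to 1685 after BAM15 (median 1417). The groups overlapped over most of their ranges. The means were 1409 ± 167 and 1386 ± 217 normalized counts (log2 fold change −0.02 ± 0.10 SE, edgeR adjusted p = 0.863). BAM15 libraries 4 to 6 had a higher Rb1 level than libraries 1 to 3 (means of 1556 and 1216 normalized counts, log2 difference 0.35, adjusted p = 0.0166, edgeR). Of the related pocket protein genes, Rbl1 (p107), itself known as an E2F target, fell from 126 ± 9.40 to 87.9 ± 13.3 normalized counts (log2 fold change −0.52, adjusted p = 8.51e-04, edgeR). Rbl2 (p130), the form known from resting cells, had 890 ± 62.0 and 875 ± 75.2 normalized counts (log2 fold change −0.02, adjusted p = 0.788, edgeR).

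E2f1 (chromosome 2, 154559407 to 154569892, minus strand), which encodes an activating E2F factor, ranged from 386 to 441 normalized counts with vehicle (median 424) and from 164 to 240 after BAM15 (median 209). No BAM15 library reached the vehicle range. E2f1 fell 2.03-fold from 419 ± 22 to 207 ± 34.7 normalized counts (log2 fold change −1.02 ± 0.10 SE, edgeR adjusted p = 6.34e-07). BAM15 libraries 1 to 3 had nearly the same level (237 to 240 normalized counts), and libraries 4 to 6 lay lower (164 to 182). The log2 fold change was −0.77 in numbers 1 to 3 (edgeR adjusted p = 9.89e-07), which is under 2-fold, and −1.32 in numbers 4 to 6 (edgeR adjusted p = 5.79e-07). The difference between these effects was −0.54 on the log2 scale (adjusted p = 0.0444, edgeR interaction test). For the other 8 genes the adjusted p-value of such a difference lay between 0.0792 (Ccnd3) and 0.919 (Cdkn1c) in the same edgeR test.

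**Figure D3:**
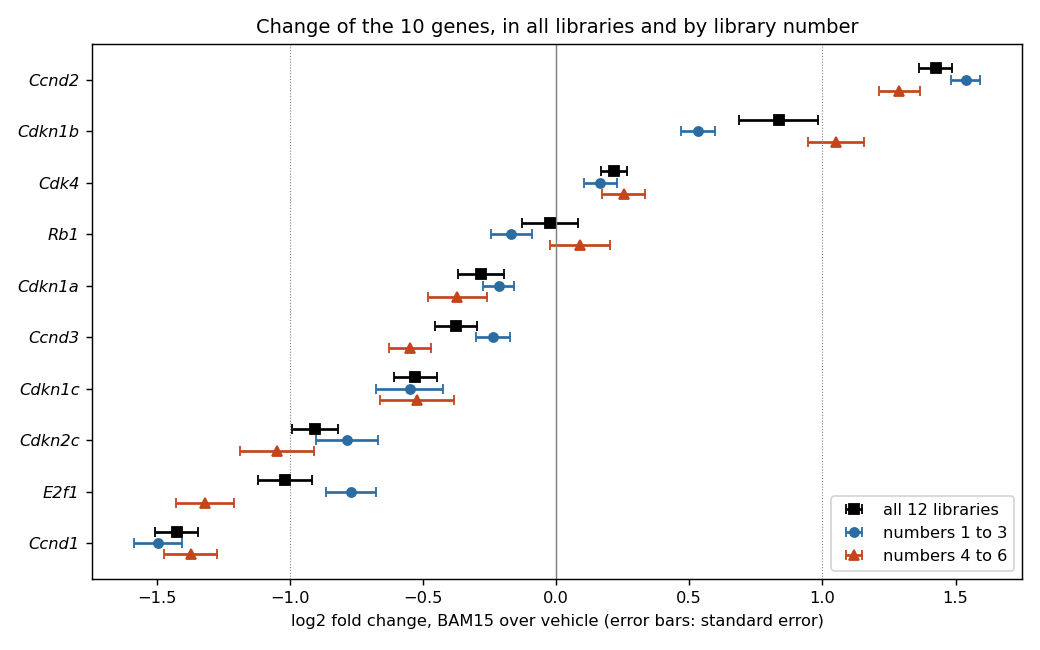
Log2 fold change (BAM15 over vehicle) of the 10 genes with its standard error, in all 12 libraries (squares), in library numbers 1 to 3 (circles) and in numbers 4 to 6 (triangles), with dotted lines at a 2-fold change. Ccnd1 and Ccnd2 lie beyond the dotted lines in both sets, and Cdkn1b, Cdkn2c and E2f1 only in numbers 4 to 6. Ccnd3, Cdkn1a and Cdk4 are also further from 0 in numbers 4 to 6, whereas Ccnd1, Ccnd2 and Cdkn1c are nearer.

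Genes that mark proliferating cells were also lower after BAM15. Their sum over 10 genes was 525 to 547 CPM in vehicle libraries. It was 149 to 167 in BAM15 libraries 1 to 3 and 164 to 182 in libraries 4 to 6. Single markers differed between these sets in either direction. Cdk1 had 7.45 to 12.7 CPM in BAM15 libraries 1 to 3 and 23.6 to 37.4 in libraries 4 to 6. Mki67 had 13.1 to 14.3 and 8.56 to 12.1 CPM. All 10 markers fell after BAM15, with a median log2 fold change of −1.53. Birc5 (survivin, of the chromosomal passenger complex) changed by −2.31 on the log2 scale and Plk1 (a mitotic kinase) by −2.04 (adjusted p = 7.71e-13 and 3.64e-11, edgeR). In these bulk cultures fewer cycling cells and less RNA per cell cannot be told apart. Summed markers of undifferentiated myoblasts (8 genes, all detected) took 185 to 240 CPM with vehicle, 96.6 to 117 in BAM15 libraries 1 to 3 and 165 to 228 in libraries 4 to 6. The median log2 fold change of these markers was −0.36, with 3 lower (Msc, a repressor of myogenic factors, Id2 and Pax7), 1 higher (Myf5) and 4 not called. Of the 12 myotube markers, Acta1 and Myog rose, Mymk, Mylpf and Ckm fell and 7 did not pass (median log2 fold change −0.17). The 3 lower calls became 0 without BAM15 library 6 and 1 without BAM15 library 3 or 4 or vehicle library 1, 3, 4 or 6. They became 5 with DESeq2 and 4 with limma-voom. The 2 higher calls stayed 2 with both of these tools and became 1 without BAM15 library 4 or vehicle library 3 or 5. The part of these cell types in the changes of the G1 genes was not tested.

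Ccne1, Ccne2 and Ccna2, which encode cyclins that act after the D-type cyclins, all fell. Ccne1 and Ccne2, the E-type cyclins of the G1/S transition, fell from 178 ± 20.2 to 70.9 ± 13 and from 291 ± 35.9 to 88.3 ± 18.7 normalized counts (log2 fold changes −1.32 and −1.72, adjusted p = 3.33e-07 and 5.76e-08, edgeR). Ccna2, the cyclin of S phase, fell from 436 ± 27.5 to 99.5 ± 22.7 normalized counts (log2 fold change −2.13, edgeR adjusted p = 1.39e-09). Of the kinase genes, Cdk6 fell and Cdk2 did not pass. Cdk6 had 1648 ± 197 normalized counts with vehicle and 1313 ± 77.9 after BAM15 (log2 fold change −0.33, adjusted p = 1.98e-03, edgeR), with overlapping groups. Cdk2 had 460 ± 46.5 and 389 ± 158 normalized counts (log2 fold change −0.24, adjusted p = 0.381, edgeR).

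Of the 9 other genes of E2F factors and their DP partners, 3 fell, 0 rose and 6 did not pass. E2f2, a second activating factor, was more abundant than E2f1 and fell from 3235 ± 328 to 919 ± 151 normalized counts (log2 fold change −1.82, edgeR adjusted p = 1.39e-09). E2f7, a repressing factor that is known to rise in S phase, fell from 247 ± 14.5 to 23.9 ± 7.07 normalized counts (log2 fold change −3.37, edgeR adjusted p = 1.28e-10). Its relative E2f8 changed by −0.61 on the log2 scale (edgeR adjusted p = 6.58e-04), with overlapping groups. E2f3, E2f4, E2f5, E2f6, Tfdp1 and Tfdp2 had log2 fold changes between −0.44 and 0.19.

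Of 20 S phase genes that E2F factors are known to activate, 17 fell, 1 rose and 2 did not pass (Mcm4 and Mcm7), and the median log2 fold change was −1.08. Tk1 (thymidine kinase) fell from 685 ± 68.8 to 69.0 ± 10.7 normalized counts (log2 fold change −3.31, edgeR adjusted p = 1.87e-12). Uhrf1, which brings maintenance methylation to new DNA, changed by −2.41 on the log2 scale (edgeR adjusted p = 1.88e-10). Cdt1, which loads the replicative helicase, moved the other way, from 187 ± 25.4 to 334 ± 29.8 normalized counts (log2 fold change 0.84, edgeR adjusted p = 3.63e-06).

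The E2F motif was searched as TTTCCCGC, TTTCGCGC, TTTGCCGC or TTTGGCGC on both strands of the same RefSeq windows. It was found for 8 of the 15 S phase genes with a window, for 2.6% of all 27025 genes with a window and for 0 of the 6 G1 genes. The S phase genes were listed as known E2F targets, so their share was not independent of that choice. A match was found for 4 of 7 other E2F and DP genes with a window. Among the proliferating cell markers, all of which fell, it was found for 1 of 9. The only RefSeq windows of E2f1 and Cdkn2c lie inside the gene as GENCODE annotates it and are not shown. The bases before the annotated 5′ end of these genes were thus not searched, and the 0 of 6 does not cover them. E2f3 had a match and did not pass (log2 fold change 0.12, edgeR adjusted p = 0.444), and Tk1, which fell, had no match. The stretches of 3 genes follow, 1 each from an E2F gene, a pocket protein gene and an S phase gene. All 3 fell and hold a match, so they do not show how often a match goes with a fall. The matches are in capitals.
E2f7, chr10:110745189-110745438, plus strand: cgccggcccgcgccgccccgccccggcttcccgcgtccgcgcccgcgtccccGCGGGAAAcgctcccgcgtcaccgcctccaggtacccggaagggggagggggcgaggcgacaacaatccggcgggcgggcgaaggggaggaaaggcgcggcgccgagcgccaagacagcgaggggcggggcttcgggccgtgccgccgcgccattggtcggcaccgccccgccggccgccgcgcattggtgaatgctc
Rbl1, chr2:157204535-157204784, minus strand: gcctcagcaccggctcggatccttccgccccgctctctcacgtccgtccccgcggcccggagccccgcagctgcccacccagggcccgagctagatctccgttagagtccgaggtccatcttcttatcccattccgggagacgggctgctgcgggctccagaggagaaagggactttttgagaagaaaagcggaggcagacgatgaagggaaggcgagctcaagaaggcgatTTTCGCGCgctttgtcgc
Mcm5, chr8:75109259-75109508, plus strand: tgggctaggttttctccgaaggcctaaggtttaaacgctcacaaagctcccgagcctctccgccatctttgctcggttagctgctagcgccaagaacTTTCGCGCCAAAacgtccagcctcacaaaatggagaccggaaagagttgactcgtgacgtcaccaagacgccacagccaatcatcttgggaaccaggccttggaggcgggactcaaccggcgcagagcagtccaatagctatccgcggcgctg
The match begins 198 bases before the start in E2f7 and 18 bases before it in Rbl1. In Mcm5, which encodes a subunit of the replicative helicase and changed by −1.93 on the log2 scale (edgeR adjusted p = 1.25e-08), 2 matches on opposite strands overlap, beginning at 153 and 149 bases.

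Genes whose products activate CDKs or mark G1 regulators for degradation had a median log2 fold change of −0.05 (12 genes, 1 higher, 3 lower and 8 not called). Fbxw7, the receptor of the ubiquitin ligase for cyclin E, fell from 3352 ± 239 to 1597 ± 208 normalized counts (log2 fold change −1.07, edgeR adjusted p = 3.13e-08). Cks1b and Skp2, which together direct p27 to its ubiquitin ligase, had log2 fold changes of −0.83 and −0.42 (adjusted p = 2.50e-04 and 5.39e-03, edgeR). Fbxo31, an F-box gene whose product is known to target cyclin D1, rose from 427 ± 35 to 592 ± 62.8 normalized counts (log2 fold change 0.47, adjusted p = 1.65e-04, edgeR).

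Cdkn1a is also a classical target of p53, and 12 other p53 targets were measured in the same fit. Of these, 8 rose, 0 fell and 4 did not pass (Bax, Phlda3, Aen and Sesn1), with a median log2 fold change of 0.46. Bbc3, which encodes the death-promoting protein PUMA, rose from 408 ± 24.1 to 1339 ± 90.4 normalized counts (log2 fold change 1.71, edgeR adjusted p = 8.98e-12). Plk2, a kinase gene, changed by 1.41 on the log2 scale (edgeR adjusted p = 1.88e-10). Cdkn1a, at −0.28 and not called, lay below all 12 of them, whose lowest log2 fold change was 0.04. The activity of p53 was not tested.

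**Figure D4:**
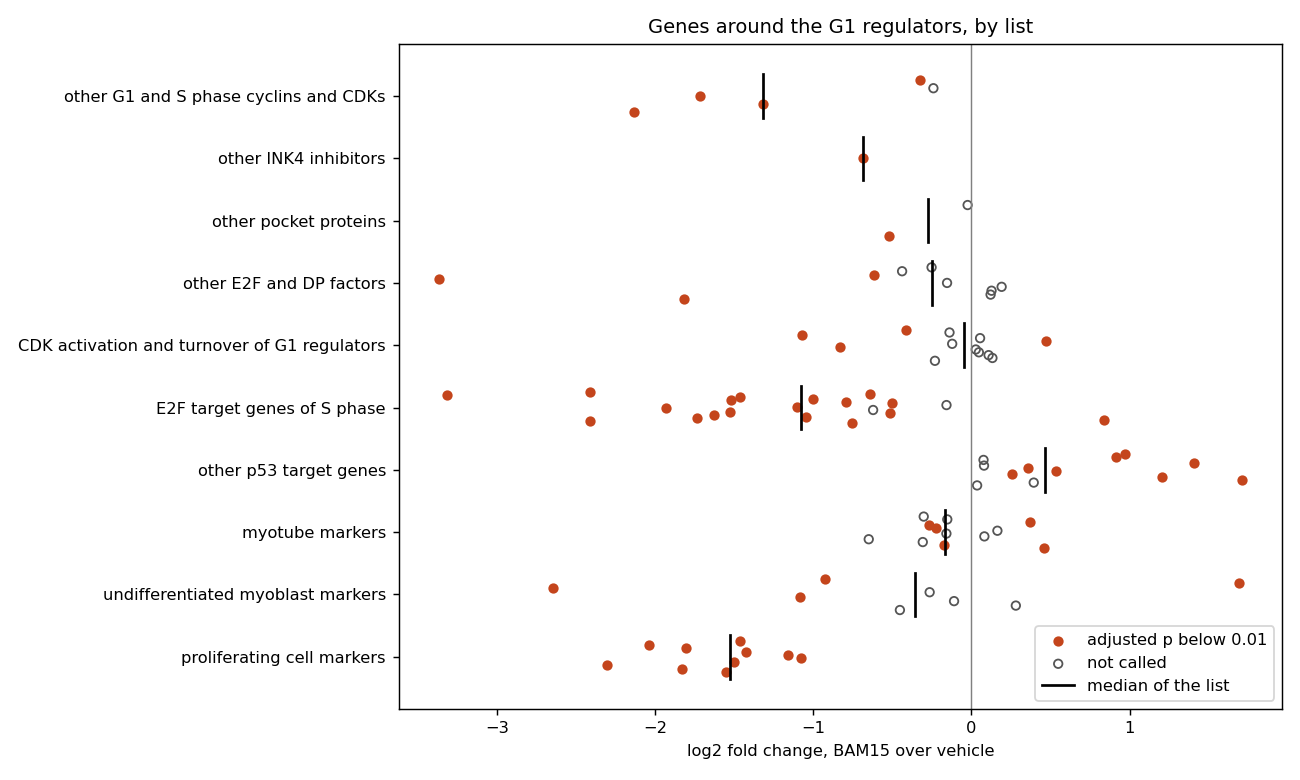
Log2 fold change (BAM15 over vehicle) of each gene in 10 lists around the G1 regulators, filled where the adjusted p-value was below 0.01 and open where it was not, with the median of each list as a vertical line. Filled points of the S phase and proliferating cell lists lie left of 0 except Cdt1, and those of the p53 target list lie right of it.

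In vehicle libraries the order of levels was Cdkn1a, Ccnd3, Ccnd2, Cdkn1b, Rb1, Cdk4, Ccnd1, E2f1, Cdkn2c and Cdkn1c. Neighbours in this order did not overlap except Cdkn1b with Rb1 and Rb1 with Cdk4. After BAM15 only Rb1 and Cdk4 changed places, and these 2 genes overlapped, as did Cdkn2c and Cdkn1c. Ccnd2 moved from rank 1244 to rank 384 among all tested genes, and Ccnd1 from rank 3095 to rank 6045.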

How the data were processed

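RNA of C2C12 myotubes was measured in 6 BAM15 and 6 vehicle libraries, grouped by the sample descriptions. The authors prepared QuantSeq libraries and aligned and counted reads with BlueBee software on GRCm38 (per the labels), and they deposited raw counts per Ensembl gene. A deposited table of normalized signal, made by the authors with DESeq2 1.22.2, supplied gene symbols (GENCODE M21 named 2260 of the 2293 rows without one) and 1 alternative. Each table also holds 11 columns of samples outside these records, which were not used. Aligner and annotation versions are not given in the sources used here.

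Counts were analysed in R 4.3.3 with edgeR 4.0.16: filterByExpr (2383 genes removed, 12730 tested), TMM scaling, robust quasi-likelihood test with condition as the only term, and Benjamini-Hochberg adjustment over all tested genes. Standard errors are the log2 fold change divided by the square root of F. Genes were called at an adjusted p-value below 0.01, and the study's base mean above 50 and fold change above 2 were applied in addition. The interaction test added a term for library numbers 1 to 3 or 4 to 6, a split chosen from earlier results of these data. Counts of any 2 libraries of 1 condition were further apart than sampling noise (chi-square per gene 4.72 to 78.4). Detection needed more than 3 counts in some library, a limit for counting error only that every gene given with a value passed.

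Positions and overlaps of the last 400 bases come from GENCODE M21. The genes, lists and tests were chosen with earlier results of these data known. Named genes are the 10 genes, every gene of lists of up to 5, and the 2 largest rises and falls called in longer lists. Others (Skp2, E2f8, Pax7, Ckm, Mcm5, Cdk1, Mki67 and those not called) were named after their values were seen. They complete a count of 5 or fewer, show a sequence or show single markers of a sum. The overlapping genes LTO1, Bysl and Tspan31 were also named after their values were seen. The tests were checked on simulated data. Alternatives were DESeq2 1.42.0, limma-voom (limma 3.58.1), other scalings and filters, blocks, left-out libraries and limma on log2(signal + 1). Figures were drawn with matplotlib 3.10.9.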

Additional observations from a re-analysis of the deposited data

How the results depend on the processing

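The directions of Ccnd1, Ccnd2, Ccnd3, Cdk4, Cdkn1a, Cdkn1b, Cdkn1c, Cdkn2c and E2f1 were kept in all 26 alternative fits, and all of these but Cdk4 and Cdkn1a also kept their calls. The number of the 10 genes past all 3 thresholds was 3. It was 2 within library numbers 1 to 3 (Ccnd1 and Ccnd2), 5 within numbers 4 to 6 and 0 with a log2 fold change above 2. Cdk4 did not pass with library size only (adjusted p = 0.0270, edgeR), within numbers 1 to 3 (0.0293) or 4 to 6 (0.0199), or with limma on the deposited normalized signal (0.0128, limma, chosen after seeing the data), with a range over the alternatives of 1.58e-04 to 0.0293. Rb1 was never called, and its log2 fold change was positive in 4 of the fits that left out 1 library (over all 12 from −0.0874 to 0.0324) and within numbers 4 to 6 (0.0886). The library numbers are shared between conditions, but only 4 of 6 same-numbered pairs deviated together with a correlation above 0.1 (−0.0756 to 0.311), and 2 of 6 BAM15 libraries correlated best with their own number, so the numbers were not treated as pairs. With a replicate block for the number, Cdkn1a passed (log2 fold change −0.29, adjusted p = 6.60e-03, edgeR) and no other of the 10 genes changed its call. The causes were not tested.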

Other observations

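The genes whose log2 CPM followed a G1 gene most closely over the 12 libraries were looked up among 10469 other genes with a base mean above 50. For Ccnd1 these were Cxcr4 (a chemokine receptor), Ddr1 (a collagen receptor kinase), Lima1, S100a6 and Rhob, with Pearson's r between 0.993 and 0.997. For E2f1 they were Axl (a receptor kinase), Myo1e, Gprc5c, Cyp26b1 (which degrades retinoic acid) and Dhcr7 (the last step of cholesterol synthesis), with r between 0.992 and 0.997. For Cdkn1a they were Rab3gap1, Narf, Leo1, Mid1 and Myh2, with r between 0.970 and 0.980. The points share their condition and their libraries, the difference between BAM15 and vehicle is part of each r, and the values are given as a description.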
